A study of Mus musculus with 4 samples.

Results

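The 5 antigen receptor loci of the mouse that lie outside chromosome 14 are described here by how often they were captured from Tcra/Tcrd, the locus on chromosome 14 that encodes the alpha and delta chains of T cell receptors. The assay was 4C-seq, in which crosslinked chromatin is cut with a restriction enzyme and religated, and inverse PCR from 1 chosen fragment, the viewpoint, recovers the fragments that were ligated to it. The loci were taken by position in build mm9, as every HindIII fragment with its midpoint in 1 of 5 intervals: Igh (chromosome 12, 114.4 to 117.2 Mb), Igk (chromosome 6, 67.5 to 70.8 Mb), Igl (chromosome 16, 19.0 to 19.3 Mb), Tcrb (chromosome 6, 40.8 to 41.6 Mb) and Tcrg (chromosome 13, 19.2 to 19.5 Mb). Of 506753 HindIII fragments with reads in at least 1 library, 1591 lay in these loci, 551 in Igh, 735 in Igk, 60 in Igl, 173 in Tcrb and 72 in Tcrg. The rule for the intervals uses position and no measured value, but it was chosen with earlier results of these data known. The borders could not be set against an annotation of mm9.

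The series compared 2 cell types, each with 2 samples, and every sample was read from the same 4 viewpoints, which gives 16 libraries. CD4- CD8- (double-negative) thymocytes, here DN, came from litters of C57BL/6 Rag2-/- mice aged 3 weeks. Splenic naive B cells, written B below, came from wild type C57BL/6 mice, for which the labels repeat the thymocyte protocol, so that their age and isolation are not given in the sources used here. 4C-seq measures no expression, so neither cell type could be checked against marker genes. All viewpoints lie in Tcra/Tcrd: TEA is a germline promoter at the start of the J alpha array, Ed is the Tcrd enhancer, and INT1 and INT2 are fragments that the labels name but do not define. Whether the replicates came from separate litters or animals is not stated, so the spread between them may be only technical. For the mean over viewpoints, the limma p-values rest largely on that spread in windows across the genome, described below. They rest little on the spread at the locus itself.

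Igh, Igk and Igl encode the heavy, kappa and lambda chains of antibodies, and Tcrb and Tcrg encode the beta and gamma chains of T cell receptors. Each holds arrays of V, (in Igh and Tcrb) D and J segments that the RAG1 and RAG2 recombinase joins during lymphocyte development, cutting out or inverting the DNA between the joined segments. Thymocytes without RAG2 keep all 5 loci unrearranged, whereas mature B cells carry rearranged Igh and Igk or Igl genes. Genotype, rearrangement, tissue and cell type differ together between the groups and cannot be told apart. The run folder in the file headers differs with them too, since both B samples share 1 folder and each DN sample has its own.

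In the RefSeq annotation of GRCm38, used only for names and order, Igh begins on its lower-coordinate side with the constant gene Igha and ends with Ighv1-86. It lists 183 V, 20 D and 4 J segments and 8 constant regions. Igk runs the other way, from Igkv2-137 to its single constant region Igkc, with 162 V and 5 J segments. Tcrb runs from Trbv1 to Trbv31 with 35 V segments, and Tcrg from Trgv7 to Trgc4 with 7 V segments. Igl is the smallest, with 3 V segments between Iglc1 and Iglv2.

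A library captured between 18862 and 114326 fragments on the autosomes other than chromosome 14, 8.04 to 48.7 per Mb, from 1220738 to 17287420 mapped reads. DN replicate 2 captured the fewest from every viewpoint. From TEA it captured 53393, against 80061 in DN replicate 1 and 97492 and 114326 in B. How far this difference in depth bears on the results was not tested, apart from thinning reads to the shallowest library. These autosomes held 83.4% to 86.7% of a library's captured fragments and 48.1% to 82.6% of its reads. For each locus and library the captured fragments per Mb were divided by this autosomal density. A ratio of 1 means that the locus was captured as often as its length alone would give. The value carries no information on how many cells made a contact, and reads from PCR without molecular identifiers are not independent molecules.

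The 5 loci were captured more often per Mb than the average of the other autosomes. Igh had a ratio above 1 in 15 of 16 libraries, Igk in 16, Igl and Tcrb in 13 each and Tcrg in 15. Over the 16 libraries the median ratio was 1.53 for Igh, 1.60 for Igk, 1.40 for Igl, 1.16 for Tcrb and 1.75 for Tcrg. The order of the loci by level therefore ran from Tcrg and Igk down to Tcrb, with wide overlap between neighbours.

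Such levels were also common elsewhere. Of 2261 windows of 1 Mb on these autosomes, the median had a mean ratio of 0.968, and 90% lay between 0.728 (5th percentile) and 1.48 (95th percentile). Tested against the autosomal mean in limma, all 5 loci passed at an adjusted p under 0.05, but so did 59.4% of windows (24.4% higher and 35.0% lower, and 63.8% at an unadjusted p under 0.05), so the pass itself sets none of the loci apart. Among windows of each locus's own length, 6 of 677 had a mean ratio above that of Igk (1.71) and 19 of 802 above that of Igh (1.50). For Tcrg (1.86) it was 184 of 7563, for Igl (1.45) 668 of 7563 and for Tcrb (1.31) 353 of 2846. As shares these were 0.886% for Igk, 2.37% for Igh, 2.43% for Tcrg, 8.83% for Igl and 12.4% for Tcrb. By captures per Mb, Igk, Igh and Tcrg thus stood nearer the top of windows of their size than Igl and Tcrb. Windows differ in HindIII site density and mappability, for which these ranks are not matched. Relative to the fragments seen in any library, the log2 level fell from 0.75 to 0.52 for Igk and from 0.55 to 0.49 for Igh. It fell from 0.76 to 0.44 for Tcrg, from 0.38 to 0.31 for Igl and from 0.33 to 0.15 for Tcrb. Ranks on that base were not counted.

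The chromosomes that carry the loci were close to the autosomal mean outside them. The rest of chromosome 12 had a ratio of 1.01 ± 0.0226 in DN and 1.03 ± 0.00501 in B (SD, n = 2). In the 2 Mb below Igh it was 0.840 ± 0.104 in DN and 0.858 ± 0.0308 in B, and in the 2 Mb above 0.884 ± 0.0729 and 0.924 ± 0.0902. On both sides Igh was therefore flanked by chromatin below the autosomal mean. Around Igk the ratio was 1.20 ± 0.104 in DN and 1.13 ± 0.0249 in B below the locus, and 0.899 ± 0.0224 and 0.891 ± 0.000434 above it. The 2 Mb above Tcrb had 1.02 in DN replicate 1 but 1.47 in DN replicate 2, against 1.10 and 1.09 in B.

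**Figure D1:**
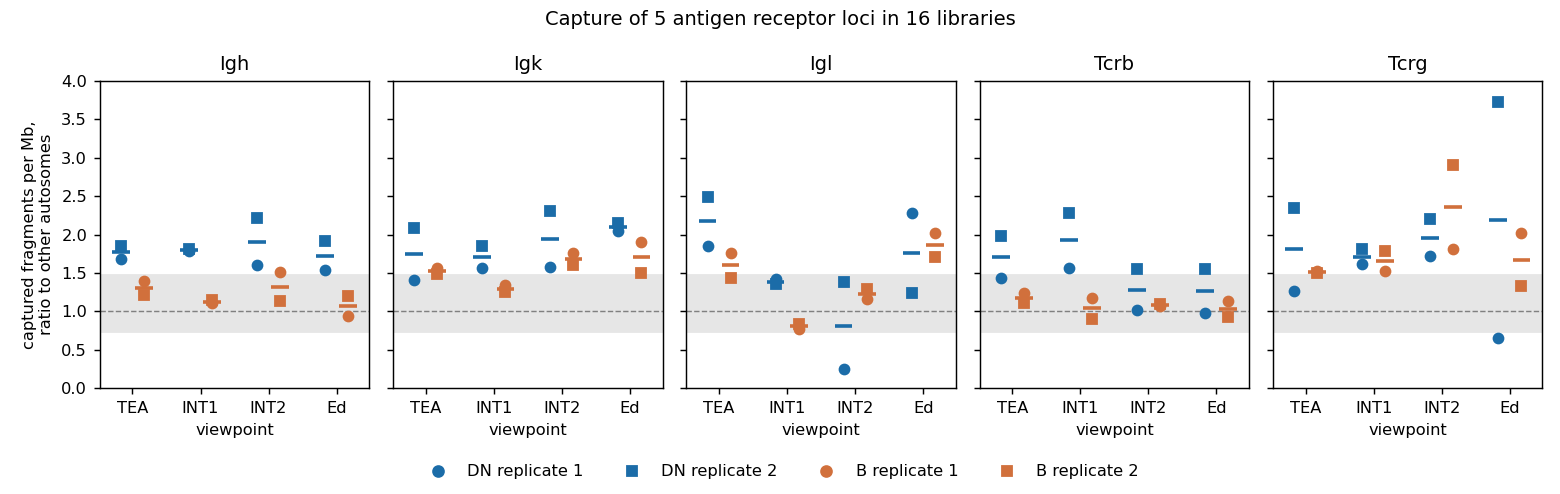
Captured HindIII fragments per Mb in each locus, as a ratio to the same library's density on the autosomes other than chromosome 14, by viewpoint. Points are single libraries, short bars the mean of 2 libraries, the dashed line is a ratio of 1 and the grey band spans the 5th to 95th percentile of the mean ratio of 1 Mb windows (0.728 to 1.48). The DN points of Igh lie above the B points from all 4 viewpoints, while those of Tcrg overlap from all 4.

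Igh was the 1 locus of 5 whose difference between the cell types passed the test. It was captured more often by Tcra/Tcrd in DN thymocytes than in B cells from each of the 4 viewpoints. From TEA the ratio was 1.69 and 1.85 in the DN replicates and 1.39 and 1.22 in the B replicates. INT1 gave 1.79 and 1.82 in DN against 1.10 and 1.15 in B. Each DN library lay above each B library from both of these viewpoints. The share of windows with such a separation from a single viewpoint was not counted, here or for the other loci.

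INT2 gave 1.60 and 2.21 in DN against 1.52 and 1.13 in B, which is the narrowest gap of the 4. Ed gave 1.54 and 1.91 in DN against 0.946 and 1.20 in B. With both DN libraries above both B libraries from all 4 viewpoints, Igh shared a pattern found in 14 of 2261 windows (0.619%). These windows are 1 Mb long and Igh 2.8 Mb, so their counting error is larger and the share is not matched for length. The Igh ratios rest on 43 to 176 captured Igh fragments per DN library and 35 to 166 per B library. DN replicate 2, the sample with the fewest captured fragments, was above DN replicate 1 from all 4 viewpoints. The plot by viewpoint shows the separation of DN from B.

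Averaged over viewpoints, the Igh ratio was 1.80 ± 0.208 in DN and 1.21 ± 0.0457 in B (SD, n = 2). The log2 change was 0.58 (SE 0.14), a 1.49-fold rise with a limma adjusted p of 0.0326. That SE was drawn largely from the windows and says little about the spread of Igh itself. Over the 5 loci the SE ran only from 0.138 (Igh) to 0.144 (Tcrg). The SD of the DN ratio ran from 0.116 (Igl) to 0.855 (Tcrg). In the same fit 0.354% of windows passed (8 of 2261, 0.177% higher and 0.177% lower), and 12.1% had an unadjusted p under 0.05. Both DN samples lay above both B samples at all loci but Tcrg, as they did in 20.7% of windows. A two-sided exact permutation test of the 4 sample means gave p = 0.33, the smallest that 2 against 2 samples allow.

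The change also has to be read against the level. Windows with a mean log2 ratio under 0 had a median change of -0.13 between DN and B, and those above 0 of 0.06, so windows captured often tended to be higher in DN. Among the 104 windows within 0.1 of the Igh level on the log2 scale, the median change was 0.18 and the 5th to 95th percentile -0.07 to 0.40, and 0 of them exceeded Igh. With that trend removed in an alternative chosen after seeing the data, the Igh change was 0.43 at a limma adjusted p of 0.0554. In edgeR on captured fragments it was 0.55 at an adjusted p of 0.237. After thinning to the reads of the shallowest library it was 0.75 at a limma adjusted p of 0.000951. Thinning uses read numbers, which are uncertain for TEA in DN replicate 2. With 1 sample of a group left out, the fit takes the spread from the other group alone and assumes that the lone sample varies like it, so those p-values say little about stability. The Igh change was then 0.60 without B replicate 1 (limma adjusted p 0.99987) and 0.55 without B replicate 2 (0.962), where 0 of 2261 windows passed either time. It was 0.69 without DN replicate 1 (6.04e-06, with 372 windows passing) and 0.46 without DN replicate 2 (0.0379, with 17). The direction held in all 24 alternatives and the call in 11.

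**Figure D2:**
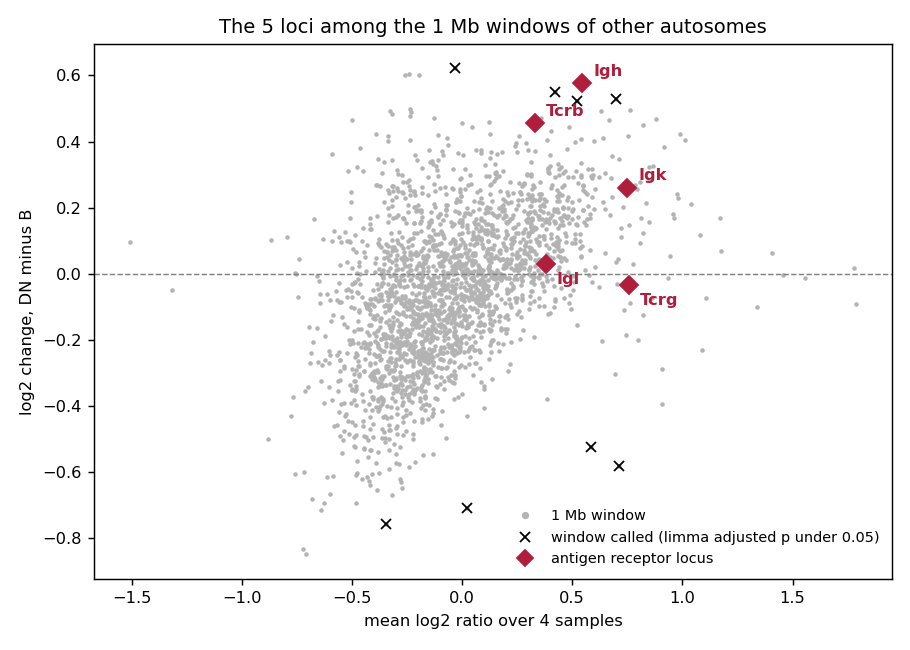
Log2 change between DN and B (vertical axis, limma on the mean over 4 viewpoints) against the mean log2 ratio to the autosomal density (horizontal axis). Each grey point is a 1 Mb window of the autosomes other than chromosome 14, crosses mark the 8 windows with an adjusted p under 0.05 and diamonds the 5 loci. The cloud slopes upward, Igh lies at its upper edge with a change of 0.58, and Igl (0.03) and Tcrg (-0.03) lie close to 0.

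Reads gave Igh the same direction as captured fragments. Summed RPM in Igh per Mb, as a ratio to the autosomal density of RPM, ranged from 1.20 to 2.15 over the 8 DN libraries, with a median of 1.35. Over the 8 B libraries it ranged from 0.686 to 1.13, with a median of 0.887. The share of windows with ranges as far apart was not counted, and the 8 libraries of a group come from 2 samples. The spread of read sums is wide across the genome, and the limma adjusted p of this Igh change was 0.750 (log2 change 0.73). The B median thus lay below the autosomal density in reads, while 7 of 8 B libraries lay above it in captured fragments.

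Along Igh the excess in DN was spread over most of the locus. In bins of 200 kb the DN mean was above the B mean in 14 of 14 bins. Of the 1 Mb windows 42.2% had a log2 change above 0, and 65.5% of those with a mean log2 ratio above 0. That share was not counted for 200 kb windows. Both DN samples were above both B samples in 9 of the 14 bins, against 17.8% of 200 kb windows elsewhere, which are not matched for level. At the lower border, on the side of the constant genes, the first bin (chr12:114400001-114600000) had the lowest mean ratio over the libraries, 0.633. It was 0.683 ± 0.254 in DN and 0.582 ± 0.124 in B (SD, n = 2), and there the samples overlapped.

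The highest bin was chr12:116400001-116600000 in the V-rich upper part, with 2.58 ± 0.505 in DN and 1.60 ± 0.515 in B. By the ratio of means, the bins that differed most were closer to the lower border. At chr12:114800001-115000000 the DN samples had 1.55 and 2.27 and the B samples 0.855 and 1.06, a ratio of means of 1.99. At chr12:115200001-115400000 it was 1.69 and 1.63 in DN against 0.768 and 0.919 in B, 1.97 times. Toward the other border the B means stayed between 1.32 and 1.66 from 116.4 Mb onward, below the DN means of 2.08 to 2.58. The last bin, chr12:117000001-117200000, had 1.98 and 2.75 in DN against 1.15 and 1.50 in B, a ratio of means of 1.79. By the plain difference of means that last bin differed most, so the place of the largest change depends on the measure. Single bins were not tested.

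**Figure D3:**
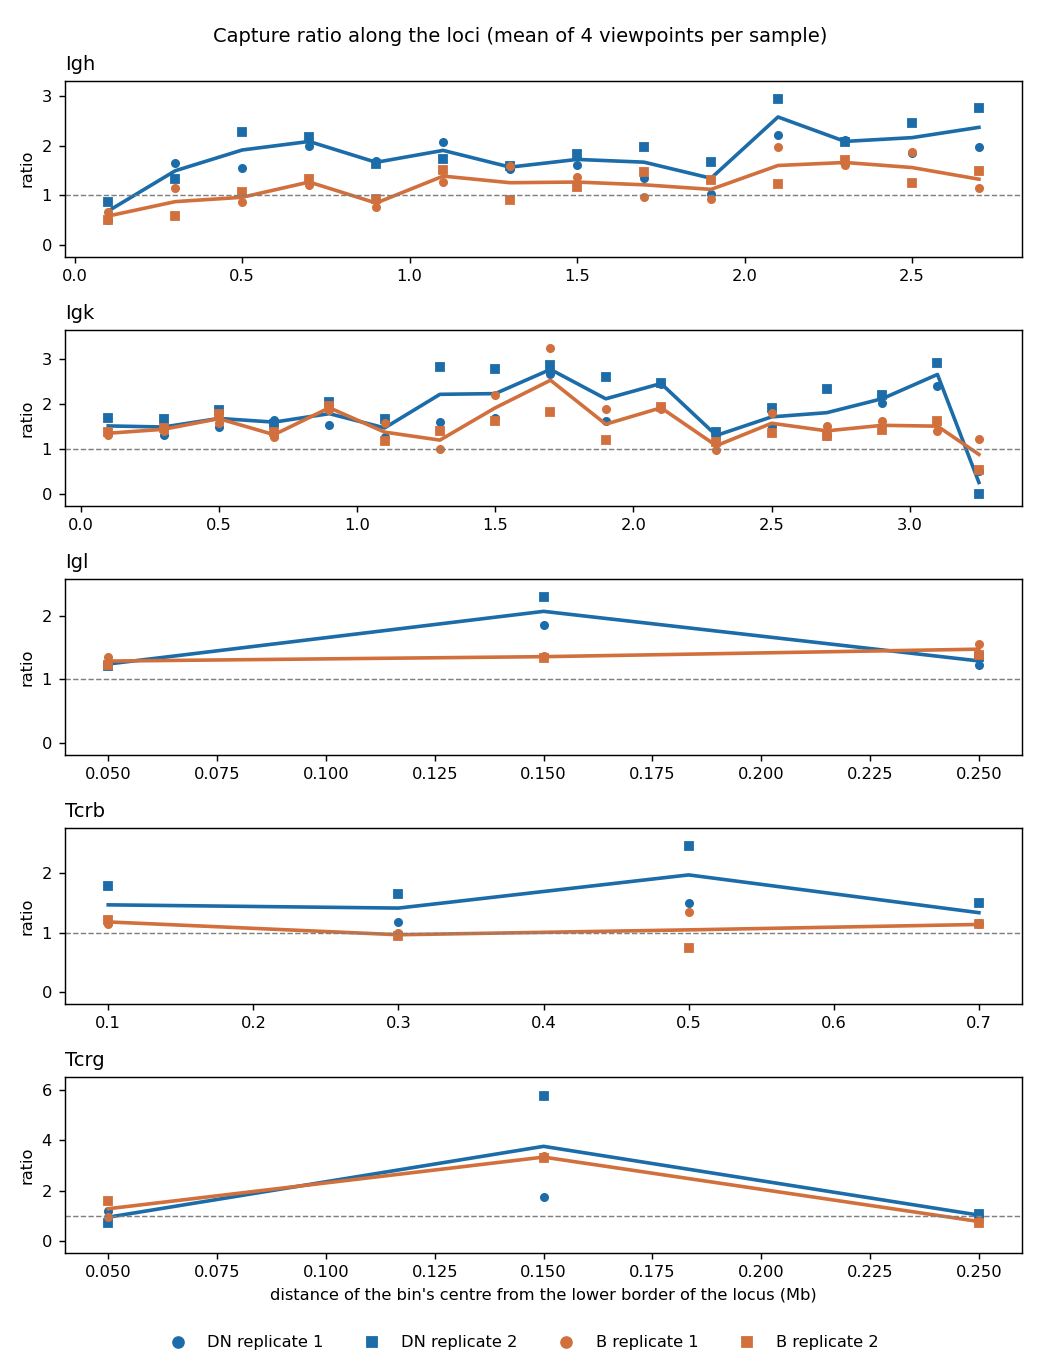
Capture ratio in bins of 200 kb (Igh, Igk, Tcrb) or 100 kb (Igl, Tcrg) against the distance of the bin's centre from the locus's lower border, in Mb. Points are samples (mean of 4 viewpoints), lines are group means and the dashed line is a ratio of 1. In Igh the DN line runs above the B line in 14 of 14 bins, where 65.5% of 1 Mb windows with a mean log2 ratio above 0 had a positive change. In Tcrg both groups peak in the middle bin, at 3.77 in DN and 3.34 in B.

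The captures in Igh were spread over many fragments. Those captured most often were chr12:117138609-117141414 (13 of 16 libraries, 6 DN and 7 B), chr12:116972608-116981156 (12 libraries, 6 and 6) and chr12:115191460-115195909 (12 libraries, 6 and 6). Their median over the DN libraries was 0.349, 1.19 and 0.507 RPM and over the B libraries 0.341, 0.705 and 0.278 RPM. Single libraries reached far higher, up to 121 RPM for the second of them in DN replicate 2 from TEA. Over all 551 Igh fragments the DN libraries made 753 captures and the B libraries 852, a ratio of 0.884. Over all fragments of the autosomes other than chromosome 14 that ratio was 0.606 (353680 captures in DN and 583283 in B).

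Igk, the kappa light chain locus, had a higher level than Igh and a smaller difference between the cell types. Its ratio was 1.88 ± 0.316 in DN and 1.55 ± 0.126 in B (SD, n = 2), with a log2 change of 0.26 (SE 0.14, limma adjusted p 0.444) that did not pass. From TEA it was 1.41 and 2.09 in DN against 1.57 and 1.49 in B, and from INT2 1.58 and 2.30 against 1.76 and 1.61, so the groups overlapped. From INT1 (1.56 and 1.85 against 1.34 and 1.25) and Ed (2.05 and 2.15 against 1.90 and 1.50) both DN libraries were higher. The share of windows like this from a single viewpoint was not counted. DN replicate 2 exceeded DN replicate 1 from all 4 viewpoints. The log2 change was 0.44 without DN replicate 1 (limma adjusted p 0.000947) and 0.085 without DN replicate 2 (0.822). The first fit has 1 DN sample, takes its spread from the B pair and passes 372 of 2261 windows.

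Within Igk the highest bin was chr6:69100001-69300000, at 2.76 ± 0.152 in DN and 2.52 ± 1.0 in B. The lowest was the last 100 kb, chr6:70700001-70800000, at the end of the interval, with 0.509 and 0 in DN and 1.22 and 0.529 in B. The bin before it, chr6:70500001-70700000, had 2.40 and 2.90 in DN against 1.40 and 1.61 in B. Both DN samples were above both B samples in 6 of 17 bins and below them in 1, the last, while 17.8% of 200 kb windows elsewhere had both DN samples above. The leading fragments were chr6:67900756-67913896 (12 libraries, median 1.08 RPM in DN and 0.0947 in B), chr6:69979506-69991010 (11 libraries, 0.434 and 4.55 RPM) and chr6:69622510-69624157 (11 libraries, 0.655 and 0.116 RPM).

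Igl, the lambda light chain locus, held few fragments and its values were coarse. A library captured between 1 and 22 of its fragments. From TEA the ratio was 1.86 and 2.49 in DN against 1.77 and 1.44 in B, and from INT1 1.42 and 1.36 against 0.766 and 0.841. From INT2 it was 0.245 and 1.38 in DN against 1.17 and 1.29 in B, and from Ed 2.29 and 1.24 against 2.02 and 1.71.

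The DN libraries were thus above the B libraries from TEA and INT1 and overlapped them from INT2 and Ed. How many windows separate from a single viewpoint was not counted, so this sets Igl apart from none of them. The value of 0.245 comes from 1 captured fragment, with a 95% Poisson interval of 0.00621 to 1.37 that covers counting error only. The mean over viewpoints was 1.54 ± 0.116 in DN and 1.37 ± 0.0771 in B (log2 change 0.03, SE 0.14, limma adjusted p 0.952). That SE was drawn largely from the windows, although Igl had only 73 captures in DN and 98 in B. Of its 3 bins chr16:19100001-19200000 was highest, with 1.85 and 2.29 in DN against 1.38 and 1.34 in B, and chr16:19000001-19100000 lowest at a mean of 1.27. Its leading fragments were chr16:19067061-19072241 (9 libraries), chr16:19181409-19181793 (8) and chr16:19110138-19118507 (7).

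Tcrb, which thymocytes with RAG2 rearrange at the DN stage, was the T cell receptor locus with the larger difference. The Tcrb ratio averaged 1.54 ± 0.422 over the DN samples and 1.08 ± 0.105 over the B samples (SD, n = 2). The log2 change of 0.46 (SE 0.14, limma adjusted p 0.120) did not pass, with an SE drawn largely from the windows. From TEA it was 1.43 and 1.98 in DN against 1.23 and 1.10 in B, and from INT1 1.56 and 2.29 against 1.18 and 0.907. From INT2 it was 1.01 and 1.55 against 1.07 and 1.09, and from Ed 0.980 and 1.56 against 1.13 and 0.926, where the groups overlapped. DN replicate 2 was above DN replicate 1 from all 4 viewpoints. Leaving out DN replicate 1 gave a log2 change of 0.73, and leaving out DN replicate 2 gave 0.18. Their limma adjusted p-values, 9.91e-06 and 0.651, set 1 DN sample against the spread of the B pair, in fits where 372 and 17 of 2261 windows passed. It also passed in edgeR on captured fragments (0.52, adjusted p 0.0484) and after thinning to the depth of the shallowest library (0.64, limma adjusted p 0.0178). The thinned fit includes TEA in DN replicate 2, whose read numbers are uncertain.

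Among windows within 0.1 of a locus's own level, 12 of 36 had a higher change than Igk, 190 of 238 than Igl and 28 of 35 than Tcrg. For Tcrb it was 2 of 251. In its 4 bins the ratio was highest at chr6:41200001-41400000, at 1.49 and 2.45 in DN against 1.35 and 0.740 in B. It was lowest at chr6:41000001-41200000, at 1.18 and 1.65 against 0.988 and 0.938, and both DN samples were above both B samples in 3 of 4 bins (17.8% of 200 kb windows elsewhere). The leading fragment, chr6:41304987-41326675, is 21689 bp long and was captured in 13 libraries, with a median of 0.400 RPM in DN and 0.975 in B. It was followed by chr6:40881287-40885119 (10 libraries, 3 DN and 7 B) and chr6:41050679-41059439 (8 libraries, 4 and 4).

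Tcrg, a locus that is germline in mature B cells and in Rag2-/- thymocytes alike, had a level like that of Igk and no difference between the cell types that passed. Its mean log2 level was 0.76 and that of Igk 0.75 (SE 0.07 each, drawn largely from the windows), and the order was not stable. Igk was higher with the share of seen fragments (Tcrg 0.44, Igk 0.52) and with an offset of 2 (0.65 and 0.74). It was also higher with its own chromosome (0.73 and 0.75) or flanks (0.69 and 0.72) as denominator. The same held without DN replicate 2 (0.62 and 0.65), either B replicate, INT1 or INT2. In the other alternatives Tcrg was higher. Its ratio was 1.92 ± 0.855 in DN and 1.80 ± 0.113 in B (SD, n = 2). The fitted log2 change was -0.03 (SE 0.14, limma adjusted p 0.948), opposite in sign to the difference of the mean ratios. That SE was drawn largely from the windows, whereas the 2 DN samples of Tcrg had mean ratios of 1.31 and 2.52. Ed gave 0.654 in DN replicate 1, from 2 captured fragments, and 3.73 in DN replicate 2, from 9. In B it gave 2.02 and 1.33. From TEA the ratio was 1.27 and 2.34 in DN against 1.52 and 1.51 in B, from INT1 1.61 and 1.81 against 1.53 and 1.79, and from INT2 1.72 and 2.20 against 1.82 and 2.91. The groups overlapped from all 4 viewpoints, and the sign of the log2 change depended on the DN sample, with 0.40 without DN replicate 1 and -0.47 without DN replicate 2. Both pass in limma (adjusted p 0.000791 and 0.00826) with the spread of the B pair alone, and with opposite signs they support no difference between the cell types.

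The Tcrg level was concentrated in its middle bin. At chr13:19300001-19400000 the ratio was 3.77 ± 2.86 in DN and 3.34 ± 0.0598 in B, while the outer bins had means of 1.12 and 0.907 over the libraries. There lay the fragments captured most often, chr13:19316077-19320757 (11 libraries, median 3.36 RPM in DN and 0.226 in B) and chr13:19335761-19341341 (10 libraries, 0.772 and 7.68 RPM). Next came chr13:19257911-19266085, below that bin, which was captured in 9 libraries.

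From single viewpoints none of these differences between cell types passed. Of 20 tests, 5 loci from 4 viewpoints, 0 had a limma adjusted p under 0.05 and 8 an unadjusted p under 0.05, 4 of these for Igh. Among windows 0.0% passed from TEA, INT1 and Ed and 0.0885% from INT2, while 6.77% (TEA), 9.91% (INT1), 7.7% (INT2) and 5.26% (Ed) had an unadjusted p under 0.05. In edgeR on recovered reads, run for INT1, INT2 and Ed, 0 of 15 passed and 1 had an unadjusted p under 0.05. In these fits 0 of 2261 windows passed, and 99 (INT1), 200 (INT2) and 73 (Ed) had an unadjusted p under 0.05. The lowest limma adjusted p of the 20 was 0.141, for Tcrb from INT1 (log2 change 0.85, SE 0.21). For Igh the log2 change was lowest from TEA (0.44, SE 0.22) and INT2 (0.52, SE 0.25) and higher from INT1 (0.67, SE 0.21) and Ed (0.68, SE 0.28).

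The 4 viewpoints were then compared within samples, to ask whether one element of Tcra/Tcrd met a locus more often than another. For Igh the viewpoint means spanned 0.22 on the log2 scale (limma F-test adjusted p 0.783), for Igk 0.34 (0.455), for Tcrb 0.32 (0.450) and for Tcrg 0.39 (0.598). None of these passed, and 0.973% of windows did (16.2% at an unadjusted p under 0.05). Igl spanned 1.01, the widest of the 5, with an adjusted p of 0.0617. It was lower from INT2 than from Ed by 0.91 (SE 0.27, limma adjusted p 0.0522) and than from TEA by 1.01 (SE 0.27, adjusted p 0.241).

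Over the 30 comparisons of pairs of viewpoints, 0 passed in limma and 5 had an unadjusted p under 0.05, while 0.0% (both pairs with INT1 that leave out Ed) to 3.49% (INT2 against Ed) of windows passed, with 1.68% for INT1 against Ed, 0.265% for TEA against Ed and 0.0442% for TEA against INT2. At an unadjusted p under 0.05 there were between 84 (TEA against INT1) and 465 (INT2 against Ed) of the 2261 windows. The share of 5 in 30 lies between these, but all of the 5 except Igk from INT1 against Ed (limma unadjusted p 0.0324) were for Igl. For Igl the limma unadjusted p was 0.000638 for TEA against INT2 and 0.00647 for TEA against INT1. It was 0.00196 for INT2 against Ed and 0.0175 for INT1 against Ed. The standard error of a pair was between 0.15, for Igk, and 0.27, for Igl. The difference between cell types did not depend on the viewpoint at any locus beyond the threshold (limma F-test of the interaction, adjusted p 0.818 for Igl, 0.911 for Tcrb and 0.987 to 0.991 for the others). For Igl the unadjusted p was 0.0124, and 0.0442% of windows passed, with 5.66% at an unadjusted p under 0.05.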

How the data were processed

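The authors deposited, for each sample and viewpoint, the HindIII fragments with reads and their read numbers scaled to the library's mapped total (RPM). Bowtie, CASAVA and build mm9 are named, without versions, per the submitters' processing notes, and the fragments were padded by 40 bp, per the file headers. The sources used here do not say how reads with several matching positions were treated. In every library at least 99.9988% of values were whole multiples of 1 read (within 0.01 read). For TEA in DN replicate 2 the files' rounding leaves the value of 1 read uncertain. That library was kept in the alternatives with thinning and with at least 2 reads, which rest on this value. Of the 3 run folders named in the headers, 0 contain libraries of DN and B alike. The 8 deposited files of means were not used.

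A fragment counted as captured if its value was above 0. Features were the 5 loci and the 1 Mb windows with a mean of at least 5 captured fragments. Values were log2((captured + 0.5)/(expected + 0.5)), with the expected number from the autosomal density, averaged over the 4 viewpoints of a sample. They were fitted in limma 3.58.1 (R 4.3.3) with a mean-variance trend, two-sided, with Benjamini-Hochberg adjustment over loci and windows and a threshold of 0.05. Viewpoints were compared with the sample as a block. In a simulation of the DN against B test on 2266 features, 37% of 1.5-fold and 83% of 2-fold changes were recovered, with 2 false calls. It assumed Poisson counts and a spread between samples of 0.15 (SD, log2). Changes were placed in windows only, so the rates do not carry over to the smaller loci. Alternatives included edgeR 4.0.16, and Python 3.11.15 was used for tables and figures. The members and tests were chosen with earlier results of these data known. Named were the 3 most often captured fragments and the highest and lowest bin of each locus, and other bins were chosen after their values were seen.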

Additional observations from a re-analysis of the deposited data

How the results depend on the processing

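For the difference between DN and B averaged over viewpoints (log2, limma adjusted p in parentheses), Igh was above 0 in all 24 alternatives and passed in 11. It did not pass with fragments of at least 2 reads, 0.68 (0.134), with the 2 Mb on each side as denominator, 0.63 (0.286), with RPM sums, 0.73 (0.750), or with capped sums, 0.75 (0.639). Nor did it with 300 kb windows, 0.58 (0.540), without the variance trend, 0.58 (0.136), without viewpoint TEA, 0.62 (0.0544), INT1, 0.54 (0.259), or Ed, 0.54 (0.112). With the level trend removed it was 0.43 (0.0554) and in edgeR 0.55 (0.237), both chosen after seeing the data. Tcrb passed when thinned, 0.64 (0.0178), and in edgeR, 0.52 (0.0484). Igl turned negative without TEA, -0.096, without INT1, -0.21, and with the level trend removed, -0.089, and rose to 0.33 without INT2, 0.30 in edgeR and 0.22 when thinned. Igk was 0.093 with the level trend removed. Tcrg turned positive with at least 2 reads, 0.087, RPM sums, 0.072, capped sums, 0.035, thinning, 0.018, without INT2, 0.046, and in edgeR, 0.0064. Leaving out each replicate gave 0.46 to 0.69 for Igh, 0.085 to 0.44 for Igk, -0.16 to 0.22 for Igl, 0.18 to 0.73 for Tcrb and -0.47 to 0.40 for Tcrg, each with 1 arm of a single sample that is assumed to vary like the other group. The windows called, 8 in all, became 372 without DN replicate 1, 17 without DN replicate 2, 0 without either B replicate, 26 when thinned, 14 in edgeR and with a random sample block, 4 with an offset of 2, 3 with TMM factors, 1 without TEA or INT1, and 0 with at least 2 reads, flanks, either RPM sum, 300 kb windows, no trend or without Ed. The cause was not tested for any of these.

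The level above the autosomal mean did not pass for Igh with RPM sums, 0.24, or capped sums, 0.22. For Tcrb it did not with the share of seen fragments, 0.15, RPM sums, 0.21, or capped sums, 0.19. For Igl it was 0.047 with at least 2 reads and 0.082 when thinned, and turned negative with RPM sums, -0.28, and capped sums, -0.27.

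From single viewpoints, Igk from TEA turned negative with flanks, -0.016, RPM sums, -0.48, and capped sums, -0.37, and from INT2 with flanks, -0.057. Tcrg from INT1 turned negative with at least 2 reads, -0.030, flanks, -0.12, thinning, -0.096, and an offset of 2, -0.014, and from INT2 positive with capped sums, 0.039. From Ed, Igl turned positive with at least 2 reads, 0.19, flanks, 0.10, RPM sums, 0.90, capped sums, 1.10, thinning, 0.42, and edgeR on reads, 1.21. From Ed, Tcrb turned negative with RPM sums, -0.68, and capped sums, -0.39, and Tcrg positive with at least 2 reads, 0.32, RPM sums, 0.15, capped sums, 0.0041, and edgeR on reads, 0.094. Leaving out each replicate gave -0.12 to 0.45 for Igk and -0.25 to 0.59 for Tcrg from TEA, and -0.081 to 0.13 for Tcrg from INT1. From INT2 it gave -0.087 to 0.45 for Igk, -1.89 to 0.13 for Igl, -0.092 to 0.50 for Tcrb and -0.61 to 0.057 for Tcrg. From Ed it gave -0.56 to 0.25 for Igl, -0.060 to 0.57 for Tcrb and -1.16 to 1.05 for Tcrg. The number of loci passing rose from 0 to 1 for the 4 viewpoints (Igl) with at least 2 reads, thinning, no filter, an offset of 2 and B libraries only, and for INT1 with RPM sums and thinning. Leaving out each replicate gave 0 to 1 loci for the viewpoints, the interaction, INT1 and INT2, and 0 to 3 for TEA.

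The deviations of DN replicate 1 and B replicate 1 from their group means had a correlation of 0.065 over the 2261 windows. The replicate numbers were therefore not taken as pairs. With the replicate block Igh was 0.58 (adjusted p 0.0203) and Tcrb 0.46 (0.0922), 6 windows passed, and no locus gained or lost its call. Depth limits Igl and Tcrg most, with as few as 1 and 2 captured fragments in a library.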

Other observations

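Fragments of the 5 loci recurred between libraries more often than others. A fragment of the loci was captured in a mean of 2.84 libraries, against 2.10 for the 445410 fragments seen on the autosomes other than chromosome 14. In the loci 66 of 1591 fragments (4.15%) were captured in at least 8 libraries, against 1.52% elsewhere, and 34.8% in a single library, against 46.4%. Tcrb was nearest to the rest, with 45.1% in a single library. None of the 1591 was captured in all 16 libraries, and the highest number was 13. Fragments in at least 4 libraries had a median length of 4354 bp in the loci and those in 1 library 2151 bp, against 4405 and 2274 bp elsewhere. These are descriptions without a test.

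Reads were concentrated on few fragments in the small loci. The top fragment of a library held a median of 54.6% of the reads in Igl, 39.1% in Tcrg and 35.5% in Tcrb. In Igh it held 10.1% and in Igk 6.67%. Read sums therefore rest on few fragments in the 3 smaller loci.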
